A study of Mus musculus with 6 samples.

Results

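Galectins are lectins that bind beta-galactoside sugars, most strongly the N-acetyllactosamine units on branched glycans. They lack a secretion signal, act both inside cells and on cell surfaces, and differ in how their carbohydrate recognition domains are arranged. In the brain, galectin-3 is best known as a product of activated microglia and of macrophages. Galectins 8 and 9 have 2 recognition domains in 1 chain and are known, with galectin-3, as sensors of glycans exposed inside damaged endosomes and lysosomes. The genes described here are *Lgals1*, *Lgals3*, *Lgals4*, *Lgals8* and *Lgals9*, with *Lgals3bp*, which encodes a secreted glycoprotein that galectins bind and is not itself a galectin. They were taken by symbol from the count tables, and all 6 were found among 46078 gene identifiers.

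The tables hold counts from chronic stroke infarcts and from the equivalent cortex of the other hemisphere. All tissue came from wild-type male C57BL/6J mice aged 3 months, 7 weeks after distal middle cerebral artery occlusion with hypoxia (DH stroke), in which the artery was permanently cauterized and the mice then breathed low oxygen. The 3 infarct and 3 contralateral libraries therefore come from mice that had all had a stroke, and the contralateral cortex is not tissue of an uninjured mouse. The sample records give no drug treatment and do not say which infarct and which cortex came from the same mouse. Infarcts were dissected by eye from whole tissue, so fewer cells of a type and less RNA per cell cannot be told apart.

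Counts on genes ranged from 12146959 to 13427057 in infarcts and from 11943570 to 19933962 in contralateral cortices. Tissue markers matched the labels in the cortex, where the summed level of 8 neuron markers was 7240 to 8470 CPM (counts scaled to library size). In the infarcts that sum was 481, 661 and 1260 CPM in libraries 1, 2 and 3. Infarct 3 was thus the closest of the infarcts to cortex by this measure. The infarcts held far more macrophage, lymphocyte and fibroblast RNA, as given beside the results below.

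The promoters of *Lgals3* and *Lgals9* are shown because these galectins had, respectively, the largest fold change and the most matches to the motifs searched among the members. Each sequence is 300 bases of RefSeq on GRCm38.p6, from 250 bases before the gene start that RefSeq gives to 50 bases from it, on the strand of the gene. That start differs from the GENCODE gene ends given below, and lies 6109 bases inside the GENCODE gene for *Lgals3*, 3206 for *Lgals8* and 22 for *Lgals9*. Capitals mark every match to 5 motifs searched on both strands, which are the interferon-stimulated response element (ISRE, a pair of GAAA runs with any 2 bases between them), AP-1 (TGANTCA), the PU.1 core (GAGGAA), CLEAR (CACGTGAC) and the GC box (GGGCGG).
Lgals3, chr14:47373610-47373909, plus strand: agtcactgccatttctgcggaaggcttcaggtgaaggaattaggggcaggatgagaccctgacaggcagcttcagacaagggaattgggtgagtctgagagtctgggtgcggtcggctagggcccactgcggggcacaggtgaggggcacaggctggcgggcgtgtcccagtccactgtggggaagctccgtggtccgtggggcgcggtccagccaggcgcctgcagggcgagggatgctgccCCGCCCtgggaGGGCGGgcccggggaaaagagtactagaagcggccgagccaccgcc
Lgals9, chr11:78984875-78985174, minus strand: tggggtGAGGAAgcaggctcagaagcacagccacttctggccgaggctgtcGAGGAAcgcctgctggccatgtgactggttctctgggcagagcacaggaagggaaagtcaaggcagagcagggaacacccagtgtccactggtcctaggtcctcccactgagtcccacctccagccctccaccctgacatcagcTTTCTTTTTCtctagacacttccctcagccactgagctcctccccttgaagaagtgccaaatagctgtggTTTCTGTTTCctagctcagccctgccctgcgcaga

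*Lgals9* held 2 ISRE matches, both on the opposite strand, starting at positions -55 and 15 relative to the RefSeq start, and 2 PU.1 core matches at -244 and -199. An ISRE match of this kind occurs in 3.44% of 32851 promoters of the same length, and a PU.1 core in 28.3%. *Lgals3* held 2 GC boxes at -7 and 4, a motif found in 35.7% of promoters, and no match to the other motifs. *Lgals3bp* held 1 PU.1 core at 32, *Lgals4* held 1 PU.1 core and 1 GC box, and *Lgals8* held none of the 5. AP-1 and CLEAR, found in 7.81% and 2.25% of promoters, were in none of these windows, and *Lgals1* is not listed in the promoter table. The matches are matches of letters only.

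Of the 6 genes, 5 passed the filter on low counts and all 5 were higher in the infarct, while *Lgals4* did not pass it. Calls are from edgeR's quasi-likelihood test over all tested genes and needed a Benjamini-Hochberg adjusted p below 0.05 together with more than a 2-fold difference. The background is broad, since 25.7% of 15554 tested genes were called higher and 20.9% lower. The CPM ranges of the regions did not overlap for any of the 5 tested members, as was so for 72.3% of tested genes. Those of *Lgals4* were barely apart, at 0.478 CPM in the lowest infarct and 0.456 CPM in the highest cortex. The differences between the members in size, level and spread are therefore described gene by gene.

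*Lgals3*, at 47367751 to 47386160 on the plus strand of chromosome 14, encodes galectin-3, the galectin with 1 recognition domain and a long N-terminal tail that lets it form oligomers. Its infarct libraries held 4239, 2616 and 3314 counts, which are 338, 192 and 226 CPM. The contralateral libraries held 0, 5 and 9 counts. The transcript was thus near absent from the cortex opposite and, by CPM per kilobase of exon, lay above 98.8% of tested genes of known exon length in the infarct, while 7.67% of those genes lay below it in the cortex. The log2 fold change was 9.58 (SE 0.67, adjusted p = 1.58e-05 by edgeR), the 44th largest of all tested genes. The size rests on few cortex counts, and it was 8.82 without contralateral 1 and 10.66 without contralateral 3.

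*Lgals3bp*, at 118392751 to 118402092 on the minus strand of chromosome 11, had 294, 210 and 190 CPM in the infarcts. Its contralateral levels were 8.41, 5.66 and 9.23 CPM. Every infarct library was far above every cortex library, and the spread relative to the mean was the same in both regions (coefficient of variation 24.0%). The log2 fold change was 4.90 (SE 0.26, adjusted p = 4.16e-07 by edgeR).

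*Lgals1*, at 78926725 to 78930465 on the plus strand of chromosome 15, encodes galectin-1, a small galectin that acts as a dimer. It had 44.4, 16.7 and 29.6 CPM in the infarcts and 1.98, 1.11 and 1.20 CPM in the contralateral cortices. Infarct 2 was the lowest of the infarcts and infarct 1 the highest, and this gene had the widest relative spread among infarcts of the 6 (coefficient of variation 45.9%). The log2 fold change was 4.36 (SE 0.42, adjusted p = 2.98e-05 by edgeR). Its longest match to an annotated transcript of another gene is to a processed pseudogene, *Gm8275*, identical at 81.0% of 426 aligned bases.

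*Lgals9*, at 78962974 to 78984946 on the minus strand of chromosome 11, encodes galectin-9, a ligand of the checkpoint receptor TIM-3. The infarcts had 150, 106 and 95.2 CPM and the cortices had 8.88, 7.94 and 7.94 CPM. The cortex libraries were nearly equal (coefficient of variation 6.57%), and the infarct libraries spread over a wider range (24.7%). The log2 fold change was 3.82 (SE 0.21, adjusted p = 4.73e-07 by edgeR).

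*Lgals8*, at 12439415 to 12464944 on the minus strand of chromosome 13, encodes galectin-8, which marks ruptured endosomes for autophagy. It had 78.7, 77.5 and 64.3 CPM in infarcts and 23.7, 19.5 and 17.6 CPM in cortices. Its log2 fold change of 1.85 (SE 0.17, adjusted p = 1.10e-05 by edgeR) was the smallest of the 5 tested members. The nominal 95% intervals of the log2 fold changes did not overlap between *Lgals8* (1.52 to 2.19) and *Lgals9* (3.41 to 4.23), or between *Lgals3* (8.27 to 10.90) and *Lgals3bp* (4.39 to 5.40). Those of *Lgals3bp*, *Lgals1* (3.53 to 5.18) and *Lgals9* overlapped in neighbouring pairs. Of the exon bases of *Lgals8*, 4.2% lie opposite exons of *Heatr1*. The longest match of *Lgals8* to a transcript of another gene is to a processed pseudogene, *AC107765.2*, identical at 85.8% of 975 aligned bases.

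*Lgals4*, at 28833854 to 28841708 on the plus strand of chromosome 7, encodes a galectin of the gut epithelium. It had 6, 15 and 14 counts in the infarcts and 7, 7 and 4 in the cortices, or 0.478 to 1.10 CPM against 0.366 to 0.456 CPM. With no filter on low counts the log2 fold change was 1.09 (SE 0.68, adjusted p = 0.209 by edgeR), and DESeq2 gave an adjusted p of 0.243. Without infarct 1 the gene passed the filter and was called higher (log2 fold change 1.37, adjusted p = 0.0439 by edgeR). A difference in *Lgals4* was therefore not settled at this depth.

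**Figure D1:**
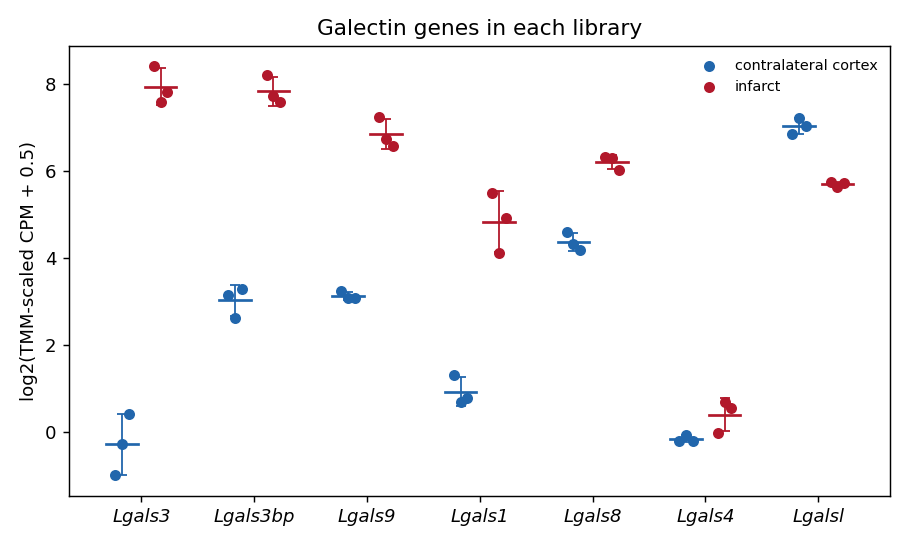
Levels of the 6 members and of the galectin-related gene *Lgalsl* in each library, on the vertical axis as log2 of CPM plus 0.5. Points are libraries in order 1 to 3, lines are means and bars are SDs of 3 libraries, with infarct in red and contralateral cortex in blue. The red points lie above the blue ones for all 6 members, most widely for *Lgals3*, and below them for *Lgalsl*. For *Lgals4* the gap is slight, with 0.478 CPM in the lowest infarct against 0.456 CPM in the highest cortex.

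**Figure D2:**
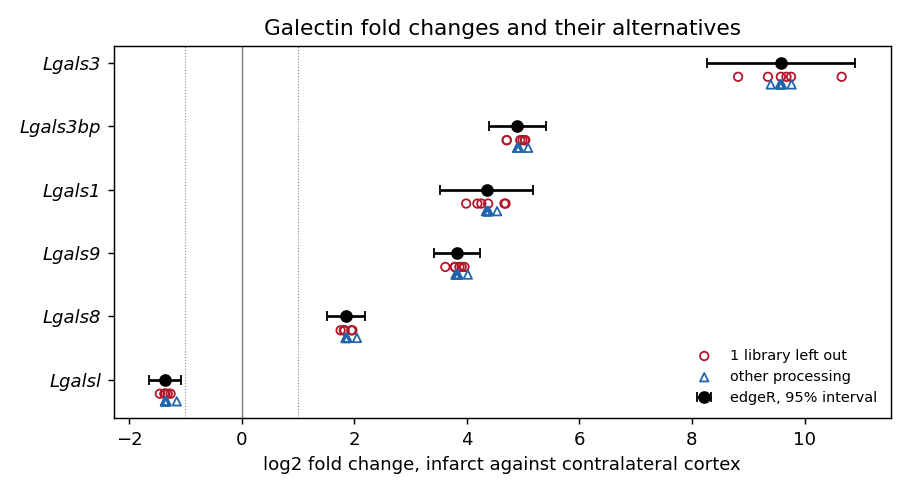
Fold changes of infarct against contralateral cortex on a log2 axis for the 5 tested members and *Lgalsl*. Black points and bars are the edgeR estimate and its nominal 95% interval, red circles leave out 1 library each and blue triangles use another tool, filter or scaling. *Lgals3* spans 8.82 to 10.66 when a library is left out, and no setting brings any of the 5 members to the dotted lines that mark a 2-fold change.

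Levels can be compared between genes only after division by exon length. On that scale, in CPM per kilobase of exon, the summed level of the 6 members was 426, 267 and 284 in the infarcts and 15.9, 12.6 and 13.7 in the cortices, a 23.2-fold ratio of means (326 ± 87.3 against 14.1 ± 1.68, SD, n = 3). In the infarct the order of levels was *Lgals3* (103 to 182 CPM per kilobase), *Lgals3bp* (66.6 to 103), *Lgals9* (44.6 to 70.1), *Lgals1* (18.5 to 49.1), *Lgals8* (17.4 to 21.3) and *Lgals4* (0.206 to 0.476). Across libraries, neighbours in this order had overlapping ranges, except that *Lgals4* lay below *Lgals8*. Within each infarct library, however, *Lgals3* was above *Lgals3bp*, *Lgals3bp* above *Lgals9* and *Lgals9* above *Lgals1*. In the cortex the order was *Lgals8* (4.78 to 6.43), *Lgals9* (3.71 to 4.16), *Lgals3bp* (1.99 to 3.24), *Lgals1* (1.23 to 2.20), *Lgals3* (0 to 0.447) and *Lgals4* (0.158 to 0.197). There, the ranges overlapped between *Lgals3bp* and *Lgals1* and between *Lgals3* and *Lgals4*. Within each cortex library *Lgals3bp* was above *Lgals1*. By mean level, *Lgals8*, the highest galectin of the cortex, was thus second from last in the infarct. *Lgals3*, second from last in the cortex by mean, came first in the infarct. Single libraries differed, as *Lgals3* was below *Lgals4* in contralateral 1 (0 against 0.158) and contralateral 2 (0.175 against 0.197). In infarct 2, *Lgals8* (21.0) was above *Lgals1* (18.5).

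The make-up of the family was computed as each gene's percent of the summed counts per kilobase, a quantity that does not depend on how libraries are scaled. *Lgals3* made up 42.7%, 38.8% and 42.9% in the infarcts and 0%, 1.39% and 3.27% in the cortices. *Lgals8* made up 5.01%, 7.88% and 6.15% in the infarcts and 40.5%, 42.0% and 35.0% in the cortices. *Lgals9* made up 16.9% ± 1.51 in infarcts and 27.6% ± 1.72 in cortices, and *Lgals4* 0.124% ± 0.0676 and 1.24% ± 0.292 (SD, n = 3 libraries). For these 4 genes the regions did not overlap, and the exact two-sided permutation test gave p = 0.1, the smallest that 3 against 3 libraries allow, or 0.15 after adjustment over the 6 genes. The shares of a library add up to the whole, so the larger share of *Lgals3* in infarcts lowers the other shares by itself. The tests of the 6 genes are thus not independent, and a smaller share is not a lower level. In CPM, *Lgals8* and *Lgals9* were higher in infarcts. *Lgals3bp*, at 25.1% ± 2.19 against 19.4% ± 4.02, had p = 0.2 by the same exact test (adjusted 0.24). With raw counts, not divided by exon length, the difference of *Lgals3bp* was 12.7 points in place of 5.77 (exact permutation p = 0.1), and that of *Lgals9* was -4.89 in place of -10.7. *Lgals1* had a near-equal share in both regions, at 11.5%, 6.92% and 11.6% in the infarcts and 13.8%, 9.73% and 9.72% in the cortices (exact permutation p = 0.6, adjusted 0.6), and the sign of that difference turned with the setting.

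**Figure D3:**
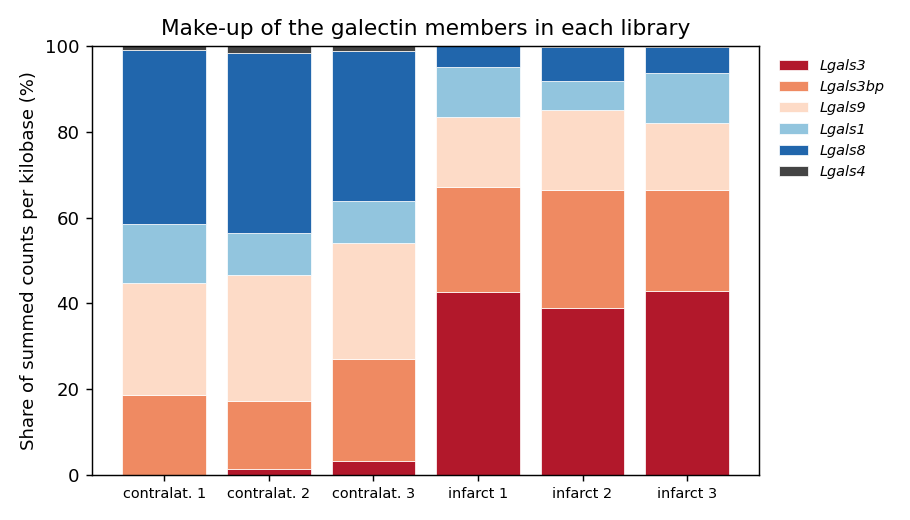
Make-up of the 6 members in each library, as the share in percent of their summed counts per kilobase of exon. *Lgals8* is the largest share in each cortex library, 35.0% to 42.0%, and *Lgals3* is the largest in each infarct library, 38.8% to 42.9%.

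Among the other genes with a galectin fold, *Lgalsl*, which encodes a galectin-related protein thought not to bind lactose, moved the opposite way. It had 53.0, 49.3 and 51.9 CPM in the infarcts and 115, 149 and 130 CPM in the cortices, with no overlap. The log2 fold change was -1.36 (SE 0.15, adjusted p = 2.85e-05 by edgeR). *Lgals12*, a galectin of fat cells, had 5, 3 and 3 counts in the infarcts and 15, 12 and 13 in the cortices. It did not pass the filter, had an adjusted p of 0.052 by edgeR with no filter, and was called lower without infarct 1 (log2 fold change -2.02, adjusted p = 0.0187 by edgeR). *Lgals2* and *Lgals7* had at most 3 counts in any library and *Grifin*, a lens protein, had 0 in all 6. *Lgals6* matched no symbol in the annotation used here.

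Galectins act through the glycoproteins they bind, and most genes on a list of these were higher in the infarct as well. The list was chosen with earlier results of these data known, so its share of called genes does not speak for galectin ligands in general. Of 33 genes for galectin ligands and receptors, 31 were tested, 28 were called higher (90.3%, against 25.7% of all tested genes) and 0 lower by edgeR, with a median log2 fold change of 2.93 against 0.03 over all tested genes. The 3 tested genes that were not called were *Bsg* (0.23, adjusted p = 0.285), *Slc2a1* (0.08, adjusted p = 0.778) and *Cd47* (-0.01, adjusted p = 0.964). DESeq2 also called 0 lower, and 0 were lower at an unadjusted p under 0.05 by edgeR. *Cd7* and *Havcr1* did not pass the filter of the edgeR test. DESeq2 called both higher (adjusted p = 0.0148 and 0.00133), and edgeR with no filter called *Cd7* (adjusted p = 0.00563) and not *Havcr1* (adjusted p = 0.17). *Havcr1* had 72 counts in infarct 1, 8 and 7 in the other two infarcts and 0 in the cortices.

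Among the partners of galectin-1, *Ptprc*, which encodes the leukocyte phosphatase CD45, had 403, 251 and 193 CPM in infarcts and 5.80, 4.95 and 4.15 CPM in cortices (log2 fold change 5.81, SE 0.32, adjusted p = 8.93e-07 by edgeR). *Spn*, which encodes the T cell sialoglycoprotein CD43, had at most 2 counts in any cortex library, and its infarct level was at least 101-fold higher. *Cd2* was at 0 counts in the 3 cortices, against which its infarct level was at least 23.6-fold higher. These 3 are leukocyte genes, and *Cd2* is also on the T cell marker list below.

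Partners of galectin-3 include *Trem2*, a lipid-sensing receptor of phagocytes, which had 113, 104 and 97.5 CPM in infarcts and 4.81, 3.32 and 3.51 CPM in cortices (log2 fold change 4.74, SE 0.20, adjusted p = 1.64e-07 by edgeR). *Lamp1* and *Lamp2*, the main glycoproteins of the lysosome membrane, had log2 fold changes of 2.12 (SE 0.19) and 3.01 (SE 0.19). *Lamp2* reached 1290 to 1760 CPM in the infarct. *Clec7a*, the beta-glucan receptor dectin-1 and a partner of galectin-9, had the largest fold change of the list, with 353, 302 and 248 CPM in the infarcts and 2, 5 and 0 counts in the cortices (log2 fold change 10.85, SE 0.42, adjusted p = 1.64e-07 by edgeR).

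Other partners of galectin-9 are receptors of immune cells. *Havcr2*, which encodes TIM-3, had 38.0, 38.3 and 31.5 CPM in infarcts and 5.22, 4.49 and 4.34 CPM in cortices (log2 fold change 2.93, SE 0.18, adjusted p = 9.17e-07 by edgeR). *Pdcd1*, which encodes PD-1, had 47, 23 and 18 counts in infarcts and 0 in every cortex library, at least a 10.6-fold difference. *Cd44*, a hyaluronan receptor, had 304, 298 and 264 CPM against 7.00, 5.27 and 7.01 CPM (log2 fold change 5.49, SE 0.19, adjusted p = 1.50e-07 by edgeR). The infarct libraries were alike for *Cd44* and *Havcr2*, while *Ptprc* and *Pdcd1* were highest in infarct 1.

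The sugars that galectins recognize are built by branching and galactosyl enzymes, and their genes are listed here. Of 23 such genes 22 were tested, and edgeR called 7 higher (31.8%, against 25.7% of all tested genes) and 1 lower (4.55%, against 20.9%). The median log2 fold change was 0.63. *B4galt1*, which adds the galactose of N-acetyllactosamine, had 187, 154 and 134 CPM in infarcts and 9.72, 10.9 and 7.66 CPM in cortices (log2 fold change 4.06, SE 0.20, adjusted p = 3.13e-07 by edgeR). Its relative *B4galt2* fell by 2.28 on the log2 scale (SE 0.19), with 105 CPM ± 7.51 in cortices and 21.6 CPM ± 5.16 in infarcts (SD, n = 3), and 28.2% of its exon bases are shared with *Ccdc24* on the same strand. The chain-extending enzymes *B3gnt5*, *B3gnt8* and *B3gnt7* had log2 fold changes of 4.39, 4.30 and 3.08, with *B3gnt8* and *B3gnt7* under 10 CPM in every library. *B3gnt2*, also on the list, did not pass the filter, with 0 to 10 counts per library. Of its exon bases 58.6% are shared with *Gm28048* on the same strand, so its level here is uncertain. *Mgat5*, which makes a branch that favours galectin-3 binding, had 180 to 198 CPM in infarcts and 180 to 189 CPM in cortices (log2 fold change 0.06, nominal 95% interval -0.20 to 0.31, adjusted p = 0.712 by edgeR).

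Sialic acid on the terminal galactose can block galectin binding, depending on the linkage. Of 8 sialyltransferases that add it, all tested, 2 were called higher and 2 lower (25.0% each), shares near those of all tested genes (25.7% and 20.9%), with a median log2 fold change of 0.15. The alpha-2,6 enzymes, whose linkage blocks most galectins, moved in opposite directions. *St6gal1* had 179, 118 and 103 CPM in infarcts and 13.4, 16.9 and 17.9 CPM in cortices (log2 fold change 3.06, SE 0.24, adjusted p = 3.67e-06 by edgeR). *St6gal2*, known from brain, had 7.89, 14.2 and 22.8 CPM in infarcts and 219, 205 and 185 CPM in cortices (log2 fold change -3.76, SE 0.36, adjusted p = 4.03e-05 by edgeR). *St3gal1* was called higher (1.20) and *St3gal5*, the GM3 synthase, lower (-2.20).

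Genes of the response to damaged endosomes and lysosomes, in which galectins 3, 8 and 9 take part, numbered 20. Of these 19 were tested, and 3 were called higher and 3 lower by edgeR (15.8% each, under the 25.7% and 20.9% of all tested genes), with a median log2 fold change of 0.23. The higher ones were *Tfeb* (2.53, SE 0.27) and *Tfe3* (1.08, SE 0.15), regulators of lysosome genes, and *Trim16* (1.62, SE 0.26), a galectin-3 partner in autophagy. The lower ones were *Ube2ql1* (-2.94), *Fbxo27* (-2.09) and *Gabarapl1* (-1.23), of which the first 2 act in ubiquitin tagging of damaged lysosomes. *Calcoco2*, also on this list, had 0 counts in 5 libraries and 2 in infarct 3. With scaling by library totals, which raises the median of all genes to 0.23 from 0.03, 7 genes of this list were called higher.

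**Figure D4:**
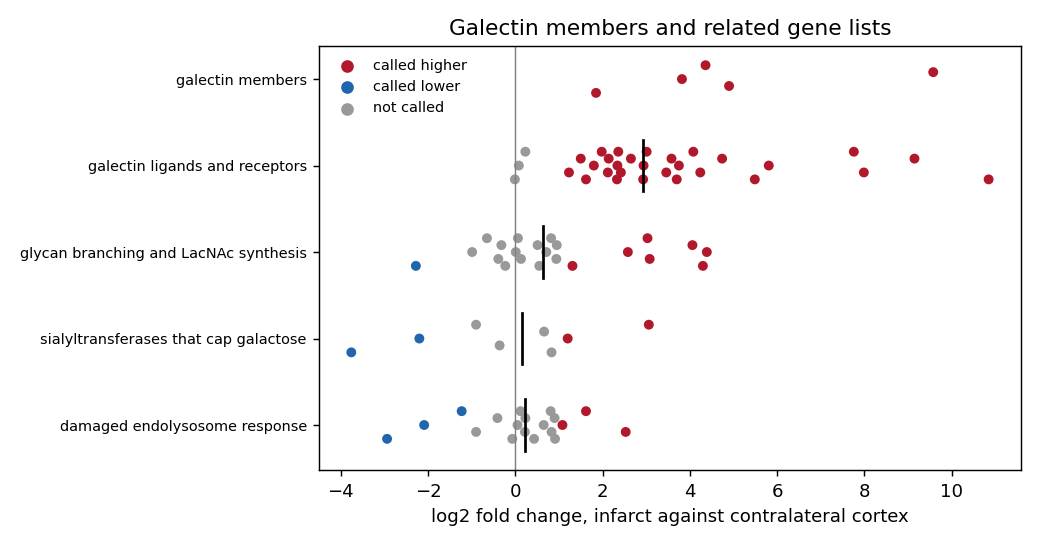
Log2 fold changes of infarct against contralateral cortex for the tested genes of the members and 4 related lists, coloured by call, with a bar at the median of each of the 4 lists. The ligands and receptors lie mostly to the right, with a median of 2.93, and the enzymes and damage response genes lie on both sides of 0, with medians of 0.63, 0.15 and 0.23.

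Markers of other cell types moved with these genes. The summed level of 10 macrophage markers was 9260, 7980 and 5660 CPM in infarcts 1, 2 and 3 and 81.3 to 97.6 CPM in cortices. Most of each infarct sum was *Lyz2*, at 7850, 6830 and 4670 CPM, and 9 of the 10 markers were called higher. Of 8 homeostatic microglia markers 4 were called higher, with sums of 913 to 942 CPM against 299 to 347 CPM, and *P2ry12* was not called (log2 fold change -0.20). All 8 fibroblast and meningeal markers were called higher (7080 to 8840 CPM against 183 to 226 CPM), and all 8 neuron markers were called lower. The 7 tested T cell markers were called higher (66.2 to 218 CPM against 3.70 to 4.15 CPM, with *Cd3d*, *Cd2* and *Cd8a* at 0 in the cortices), as were all 8 B and plasma cell markers (378 to 2450 CPM against 7.26 to 10.4 CPM). Neutrophil markers were scarce, with sums of 9.83 to 13.5 CPM in infarcts and at most 0.831 CPM in cortices, *Elane* at 0 throughout, and the 3 tested of 7 called higher.

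Of the glial and vascular lists, 4 of 7 oligodendrocyte markers were called higher (4350 to 6970 CPM against 2180 to 2600 CPM), as were 2 of 7 endothelial markers (412 to 532 CPM against 322 to 368 CPM). Of 8 astrocyte markers, 2 were called higher and 1 lower, with a median log2 fold change of 0.11. Their sums were 5200 to 7780 CPM against 13600 to 14500 CPM, of which *Slc1a2*, the 1 called lower, held 2380 to 3920 CPM against 11800 to 13000 CPM. Epithelial markers, of interest for *Lgals4*, summed to 31.0 to 44.7 CPM in infarcts and 2.60 to 5.26 CPM in cortices, with the 3 tested of 8 called higher and *Krt5* and *Krt14* at 0 throughout. Nearly all of that sum was *Cdh1*, at 41.4, 28.6 and 27.2 CPM in infarcts and 2.34 to 4.89 CPM in cortices. Of 6 skeletal muscle markers the 1 tested was called lower, with sums of at most 12.2 CPM. *Lgals3bp*, *Lgals8* and *Lgals9* had infarct 1 highest and infarct 3 lowest, while *Lgals3* and *Lgals1* were lowest in infarct 2. The sums of the macrophage, T cell, B and plasma cell, neutrophil, endothelial and epithelial markers also had infarct 1 highest and infarct 3 lowest. So did the microglia sums, which were near equal (942, 916 and 913 CPM). The reverse order held for the sums of neuron (481, 661 and 1260 CPM), oligodendrocyte (4350, 5000 and 6970) and astrocyte markers (5200, 5570 and 7780). The part of any cell type in the galectin differences was not tested.

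The genes whose profile over the 6 libraries was most like that of each member were found by the root mean square difference of mean-centred log2 CPM, among 14182 protein-coding genes, as a description. For *Lgals9* they were *Cyp4v3* (0.043), *Colec12* (0.049) and *Nt5dc2* (0.079), and for *Lgals8* they were *Gab2* (0.063), *Crlf3* (0.064) and *Hmgn1* (0.071). For *Lgals3bp* they were *Casp4*, an inflammatory caspase, with *Cd53* (both 0.12) and *Fcer1g* (0.13), leukocyte membrane genes. *Cyp4v3* had 232, 180 and 157 CPM in infarcts and 12.8 to 14.6 CPM in cortices. For *Lgals3* the nearest were *Slamf7* (0.38) and the antigen presentation genes *H2-Eb1* (0.40) and *H2-Ab1* (0.44), and for *Lgals1* they were *Fcmr* (0.21), *Cd79b* (0.23) and *Grn* (0.24). The likeness is looser for these 2 members. The pseudocount of 0.5 CPM flattens genes that are low in the cortex, among them *Fcmr*, *Cd79b*, *Casp4*, *Nt5dc2*, *Slamf7*, *H2-Eb1* and *Lgals3* itself. The log2 fold change of *Casp4* was 6.02 against 4.90 for *Lgals3bp*, and that of *Nt5dc2* was 4.88 against 3.82 for *Lgals9*. Those of *Fcmr* and *Cd79b* were 9.75 and 6.51 against 4.36 for *Lgals1*. Those of *Slamf7*, *H2-Eb1* and *H2-Ab1* were 9.06, 8.44 and 8.05 against 9.58 for *Lgals3*. These 3 neighbours were lowest in infarct 3 among infarcts, while *Lgals3* was lowest in infarct 2.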

How the data were processed

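Per the paper's methods, the authors made stranded mRNA libraries, trimmed the paired reads with Trimmomatic 0.32, aligned them to GRCm38 with STAR 2.5.2b and counted them with htseq-count. The deposited files hold raw counts per Ensembl gene, and the strand setting and annotation of the counting are not given in the sources used here. The 5 entries per file that name no gene were left out, and 65.7% to 73.4% of tallied reads fell on genes. Of the identifiers, 45143 matched GENCODE M21 and 935 did not.

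Counts were fitted in R 4.3.3 with edgeR 4.0.16 (filterByExpr, TMM, robust quasi-likelihood, region as the only term) over 15554 genes, with Benjamini-Hochberg adjustment over all of them. CPM values are TMM-scaled. Intervals of fold changes are 1.96 SE to each side, a normal approximation. With 3 libraries per region they are somewhat narrower than true 95% intervals. A fold against a region with 3 counts or fewer in every library uses that floor and covers counting error only. Replicates are separate tissue samples of 1 library each, and p values measure the spread between them. Members and lists were chosen with earlier results of these data known. Named genes are the members, the genes of the lists (largest changes of each called list first), the 3 nearest profiles per tested member among genes with a mean of 10 counts or more in the higher region, and genes overlapping a member. In simulated libraries, 200 of 15554 genes were changed 4-fold, as many up as down, and edgeR called 177 of them and 12 unchanged genes. In the real data 25.7% of tested genes were called higher and 20.9% lower. Scaling and error rate under so broad a change were not tested. Alternatives were DESeq2 1.42.0, RLE size factors, library totals, no filter, 10 counts in every library, glmTreat, the replicate block and each library left out. Shares were tested with SciPy 1.17.1.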

Additional observations from a re-analysis of the deposited data

How the results depend on the processing

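The calls of *Lgals1*, *Lgals3bp*, *Lgals8* and *Lgals9* held under every alternative, and that of *Lgals3* under each in which it was tested. It was not tested with at least 10 counts in every library, which left 4 members called. The number of members called ranged from 5 to 6 when a library was left out, the sixth being *Lgals4* without infarct 1. Other galectin-fold genes called lower numbered 1 to 2 when a library was left out. Damage response genes called higher rose from 3 to 7 with library totals, and the counts of ligands called higher (23 to 30) and of branching enzymes and sialyltransferases together (9, with 7 to 13 under the alternatives) stayed within 1.5 times. Over all genes, library totals called 4528 higher and 2766 lower, against 3999 and 3256, and fewer were called with 10 counts in every library (2789 and 2504). In the family make-up, the *Lgals1* difference of -1.08 percentage points became 0.529 with raw counts and ranged from -1.86 to 0.459 when a library was left out, turning sign without infarct 2 (0.459) or contralateral 1 (0.286). The cause was not tested. Deviations from the region means correlated at -0.209, 0.116 and 0.039 between infarct and cortex libraries of the same number. For different numbers the range was -0.287 to 0.205. With 3 libraries per region this check cannot tell whether same-numbered libraries share a mouse. With the replicate block, 3945 genes were called higher and 3222 lower, and *Lgals3* had a log2 fold change of 9.56 (adjusted p = 0.000139 by edgeR). Low counts limit *Lgals3* in the cortex, *Lgals4* and *Lgals12*.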
